A study of Caenorhabditis elegans with 2 samples.

Results

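A set of 8 genes that make microRNAs or carry out their effects were examined for binding of CRH-2 in the nematode Caenorhabditis elegans. They are drsh-1, pash-1, dcr-1, alg-1, alg-2, ain-2, cgh-1 and xrn-2, which were chosen by name for their roles and are 8 of the 19973 protein-coding genes of the annotation. CRH-2 is a basic leucine zipper transcription factor of the CREB family. Binding was measured by chromatin immunoprecipitation with sequencing (ChIP-seq), in which DNA crosslinked to a protein is recovered and read, and the genome is searched for regions with an excess of reads. There was 1 group, with 2 biological replicates of whole L2 larvae of both sexes. The strain was OP425, with the genotype unc-119(tm4063) III and the transgene wgIs425, from which C27D6.4, the crh-2 gene, was expressed with GFP and FLAG fused to the C-terminus of the protein. Every animal therefore carried the transgene and the unc-119 allele, and no group without CRH-2 or under another condition was compared. Whole larvae mix all tissues, so a gene bound in few cells and one bound weakly in many cannot be told apart, and the tagged protein may not be at the level of the untagged one. The control library against which regions were called was not analysed here.

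MicroRNAs are cut from longer transcripts in steps. In the nucleus, DRSH-1 (Drosha), a double-strand RNase, and its RNA-binding partner PASH-1 (DGCR8) release a hairpin, and in the cytoplasm DCR-1 (Dicer) cuts the hairpin to a short duplex. One strand is loaded into an Argonaute protein, ALG-1 or ALG-2, which finds target messenger RNAs by base pairing. AIN-2, a GW182 family protein, binds these Argonautes and recruits silencing machinery, and CGH-1 is a DEAD-box RNA helicase of the DDX6 family that acts in repression and storage of messenger RNA. XRN-2 is a nuclear 5′-to-3′ exonuclease, which in this species also degrades mature microRNAs released from Argonaute.

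The authors deposited a list of 5735 regions on the ce11 build (WBcel235) that passed the irreproducible discovery rate procedure, called replicated peaks here, and lists of 30000 regions each for replicate 1, replicate 2 and both pooled. The longer lists reach far down into weak regions. A rank counts from 1 at the strongest region, and the signal is the authors' own value, from 62.3 to 1625 in the replicated list with a median of 103. Relative signal is the signal of the strongest region of a replicate at the peak over the median of that replicate at all replicated peaks (56.2 in replicate 1 and 50.9 in replicate 2), so that 1 is a typical peak. The replicates differed in relative signal by a median of 0.31 on the log2 scale over the 5704 peaks found in both, and by 0.82 at the 90th percentile. A promoter peak had its summit at most 1000 bp ahead of, or 250 bp past, an annotated transcript start (5′ end) of the gene. Offsets are in bp from a 5′ end, negative upstream in the direction of transcription.

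The sequences 50 bp to each side of 4 of these summits, each 101 bp, are shown because they are the ones the description returns to. They are the intronic summit of alg-2 (rank 3246, chrII:873523-873623), the strongest promoter summit among the genes, that of cgh-1 (rank 647, chrIII:7498549-7498649), the next summit upstream of it (rank 793, chrIII:7499622-7499722), and the strong summit upstream of xrn-2 that lies outside its promoter window (rank 160, chrII:14154517-14154617). All are on the plus strand of WBcel235 in RefSeq's copy of the assembly, none overlaps an exon, and capitals mark TGACG, the shorter site that CREB family proteins bind.
alg-2 intron: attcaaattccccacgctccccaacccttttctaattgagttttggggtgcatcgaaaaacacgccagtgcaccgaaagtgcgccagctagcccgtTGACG
cgh-1 promoter: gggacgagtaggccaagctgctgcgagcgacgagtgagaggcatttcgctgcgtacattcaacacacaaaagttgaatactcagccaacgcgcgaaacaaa
cgh-1 farther upstream: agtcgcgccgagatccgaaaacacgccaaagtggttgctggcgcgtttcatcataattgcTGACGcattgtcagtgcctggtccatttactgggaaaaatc
upstream of xrn-2: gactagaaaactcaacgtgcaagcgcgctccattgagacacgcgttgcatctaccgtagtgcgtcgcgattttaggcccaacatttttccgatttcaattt

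Replicated promoter peaks were present at 4 of the 8 genes, pash-1, alg-1, alg-2 and cgh-1, beside 19.3% of all protein-coding genes. In a narrower window, 500 bp upstream and 100 bp downstream, 2 of the 8 (pash-1 and alg-1) had one, beside 15.5% of all genes. In a wider window, 2000 bp upstream and 500 bp downstream, 6 of the 8 had one, with ain-2 and xrn-2 added, beside 24.5% of all genes. With each summit given to the nearest 5′ end of a protein-coding gene, 4 of the 8 had one, beside 21.2% of all genes. There cgh-1 lost its peak and ain-2 gained one, and 5′ ends of non-coding RNA genes were not considered. Replicated summits in an intron, with no exon of the gene at the summit, were found in 2 of the 8, alg-2 and ain-2. The share of all genes that have an intron was 5%. With the 2867 stronger peaks alone the count was 0, but the share of all genes under that rule was not taken. The alg-2 summit met both definitions, so 5 of the 8 genes had a replicated peak of either kind. No share of all genes was taken for the 2 definitions joined, so this count has no background. drsh-1, dcr-1 and xrn-2 had neither kind. In the longer lists the count was 7 of 8 in each. There, a promoter summit was listed for every one of the genes but dcr-1, beside 45% of all genes in the pooled list, 45.6% in replicate 1 and 44.7% in replicate 2. No test was made on these counts, because the genes were named as a set with earlier results of these data known.

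**Figure D1:**
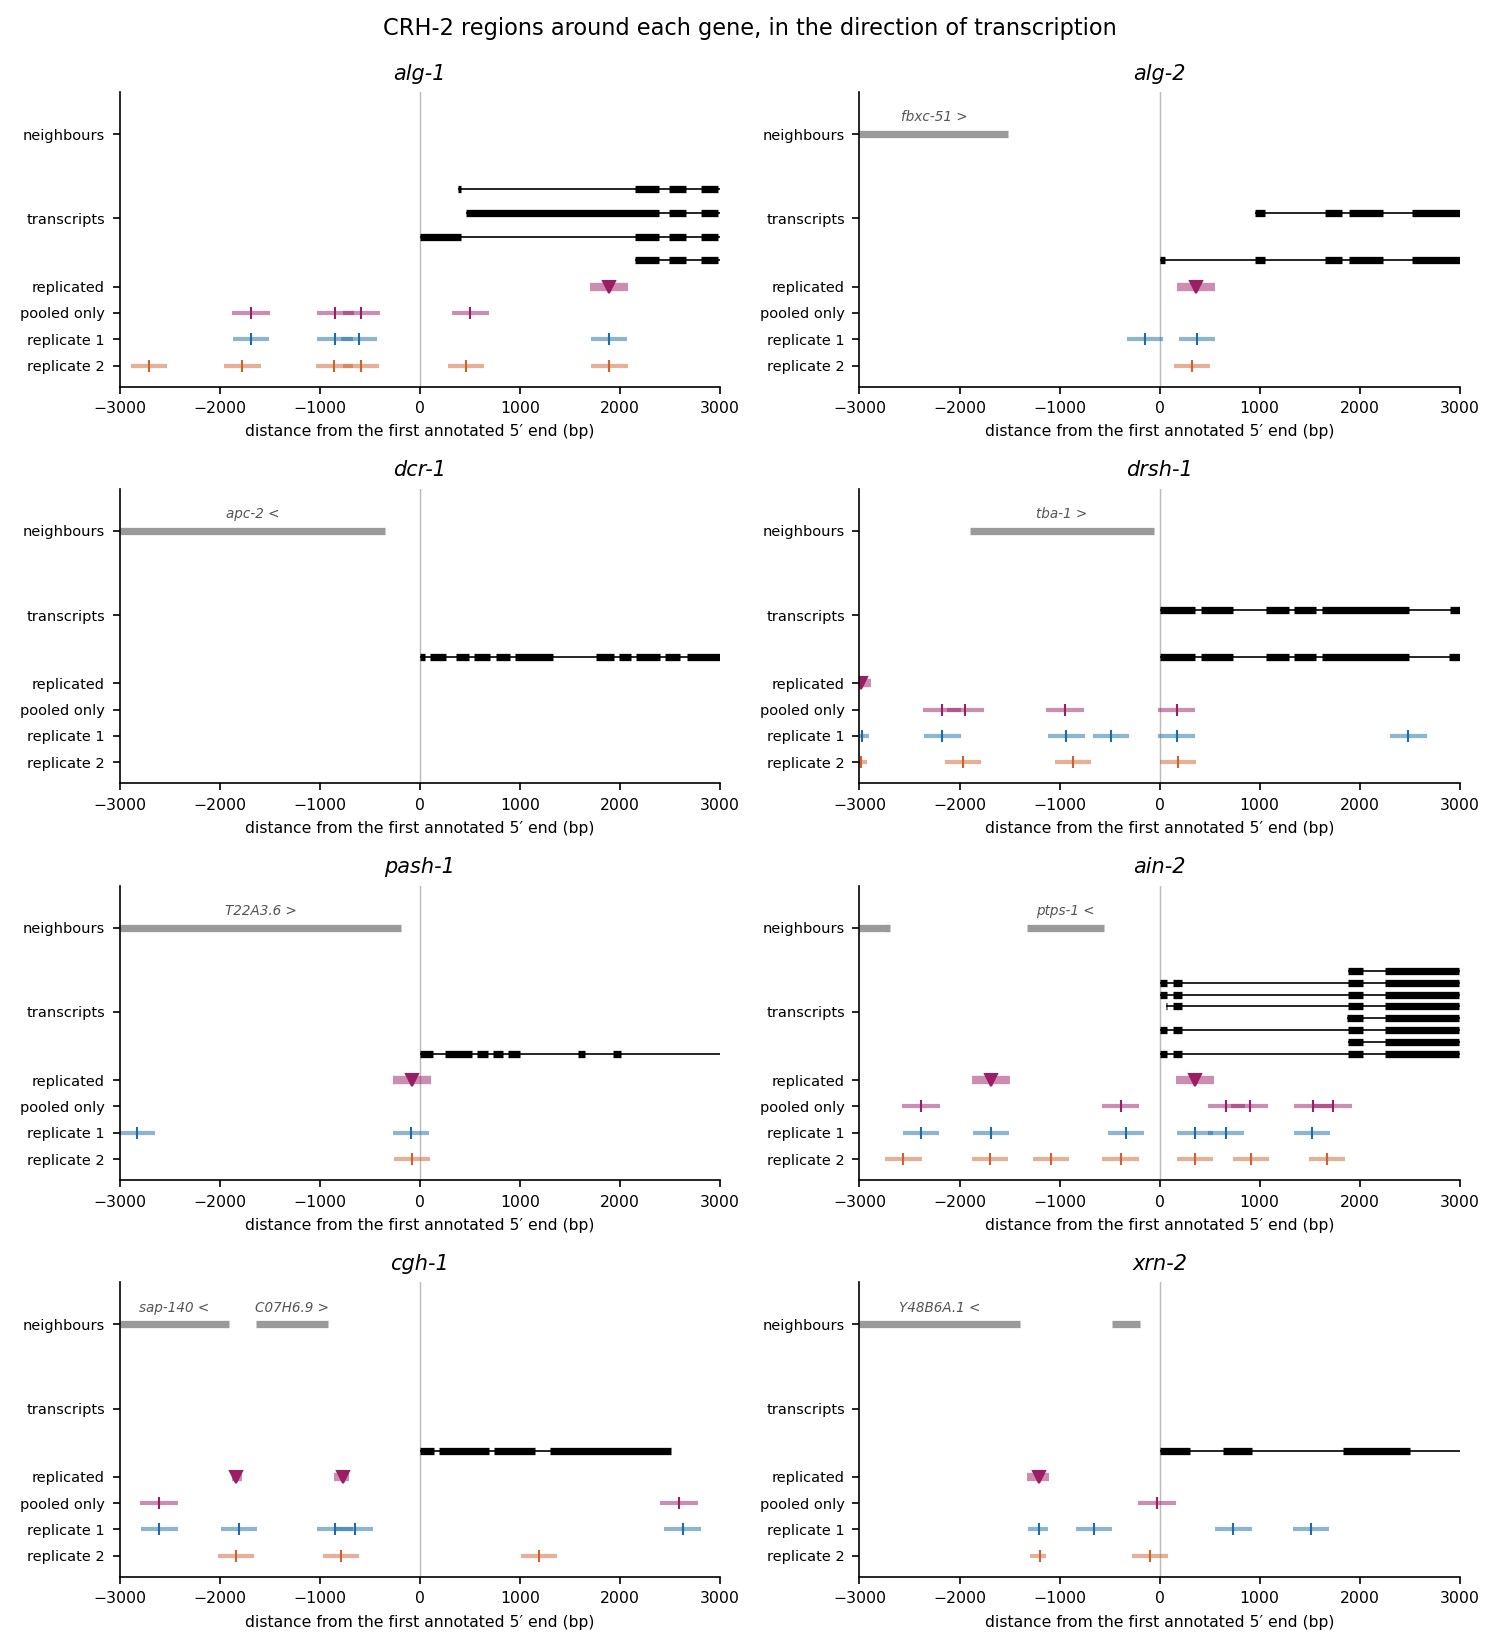
CRH-2 regions within 3000 bp of the first annotated 5′ end of each gene, drawn in the direction of transcription (x axis, bp). Rows give the replicated peaks (triangles at summits), regions of the pooled list that are not replicated peaks, the regions of each replicate, the gene's transcripts (thick, exons) and neighbouring protein-coding genes (> same strand, < opposite strand; those barely in view are not named). The strongest replicated summits of alg-1, alg-2 and ain-2 lie after the first 5′ end, with a second ain-2 peak 1683 bp ahead of it, those of pash-1 and cgh-1 lie before it, and the dcr-1 panel holds no region.

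Of the nuclear processing genes, pash-1 had a peak beside its start and drsh-1 did not reach the replicated list. The pash-1 peak (chrI:10598407-10598782; the gene, WBGene00011908, is on the plus strand) had its summit 78 bp upstream of the first 5′ end. It ranked 1337 with a signal of 161. Its relative signal was 1.66 in replicate 1 and 1.29 in replicate 2, a mean of 1.47 ± 0.265 (SD, n = 2), and both values were above that of a typical peak. The gene upstream, T22A3.6, lies on the same strand and ends 183 bp before pash-1, and its own promoter window held no replicated peak. No other gene's window held the pash-1 summit.

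The region at drsh-1 (WBGene00009163, minus strand) was the nearest to the list among the genes that missed it. In the pooled list its summit was 167 bp downstream of the 5′ end, in a coding exon (chrI:9785367-9785742), at rank 6381 with a signal of 56.9, or 646 places below the last replicated peak. Its −log10 q-value in the authors' pooled list was 3.06, against 4.07 for each of the peaks of the other genes. The replicates were unequal there. Replicate 2 placed the region at rank 5206, with a relative signal of 0.659, and replicate 1 at rank 9765, with 0.393. Upstream, tba-1, an alpha-tubulin gene on the same strand, ends 56 bp before drsh-1 and had no replicated promoter peak. The nearest replicated peak (rank 142, signal 417, relative signal 4.11 and 3.57) was 2981 bp upstream of drsh-1. It lay in the window of cox-5B, a subunit gene of cytochrome c oxidase, 20 bp upstream of its 5′ end, and in the windows of the non-coding RNA genes F26E4.14 and F26E4.16.

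No list held a region in the promoter window of dcr-1 (WBGene00000939, chrIII:8071967-8080281, minus strand). Its nearest summit in the replicated list was 5278 bp from its 5′ end, at rank 3777, and in the replicates' own lists the nearest were 5286 bp and 5276 bp away. The gene starts 347 bp from apc-2, which is transcribed in the opposite direction and had no replicated promoter peak either. A listed region in each longer list had to reach a signal of 9.13 in replicate 1, 8.71 in replicate 2 or 16.02 in the pooled list, so weaker enrichment at dcr-1 could not be seen, and no depth is known.

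Both Argonaute genes had peaks of about typical strength inside the gene, ahead of the 5′ end of a shorter transcript. At alg-1 (WBGene00000105, plus strand) the peak (chrX:13950814-13951189) ranked 2720 with a signal of 106. Its relative signal was 0.967 in replicate 1 and 1.02 in replicate 2, a mean of 0.995 ± 0.0396 (SD, n = 2), and the summits in the replicates were 4 bp apart. The 4 annotated transcripts of alg-1 have 4 different 5′ ends over 2152 bp. The summit was 1892 bp downstream of the first and 260 bp upstream of the last, in an untranslated exon of 1 transcript and an intron of others. The pooled list also held weaker regions 844 bp and 584 bp upstream of the first 5′ end, at ranks 8547 and 13836, and 44 bp downstream of another 5′ end, at rank 19793. The last was listed in replicate 2 and not in replicate 1.

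At alg-2 (WBGene00000106, plus strand) the peak (chrII:873385-873760) ranked 3246 with a signal of 94.7. Its relative signal was 0.955 in replicate 1 and 0.924 in replicate 2, a mean of 0.940 ± 0.0220 (SD, n = 2). The summit was in the first intron, 361 bp downstream of the 5′ end of the longer transcript and 587 bp upstream of that of the shorter one, so it counts as a promoter peak by the second start only. It was also 79 bp upstream of T07D3.12, a non-coding RNA gene on the same strand. Ahead of the first start, replicate 1 listed a region 143 bp upstream at rank 7918, and neither replicate 2 nor the pooled list had one there. The sequence of the intronic summit, printed above, carries TGACG at its right edge, 48 bp from the summit.

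The effector genes ain-2 and cgh-1 differed in where the peak lay and in its strength. At ain-2 (WBGene00015007, plus strand) the peak (chrI:4653634-4654009) ranked 2980 with a signal of 100.1. Its relative signal was 0.845 in replicate 1 and 0.878 in replicate 2, a mean of 0.861 ± 0.0231 (SD, n = 2), and both replicates placed the summit at the same base. The 8 transcripts of ain-2 start at 6 positions, in an early and a late cluster. The summit was in an intron, 295 bp downstream of the nearest early start and 1521 bp upstream of the nearest late one, and so outside the promoter window of both. It was within the window of ptps-1, 916 bp upstream of the 5′ end of that gene, which is transcribed in the opposite direction. The intron held further weak regions, among them one 342 bp upstream of the late starts at rank 10125 of the pooled list. A second replicated peak, at rank 3313 with a signal of 93.5, was 1683 bp upstream of the first 5′ end and in no promoter window.

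At cgh-1 (WBGene00000479, minus strand) the peak (chrIII:7498543-7498693) was 767 bp upstream of the single 5′ end, at rank 647 with a signal of 229. Its relative signal was 2.50 in replicate 1 and 2.29 in replicate 2, a mean of 2.39 ± 0.147 (SD, n = 2). The region is 151 bp wide, against a median of 376 bp in the list, and the replicates placed its strongest summit 134 bp apart, more than the 93.7 bp of the 90th percentile over all peaks. Replicate 1 had its strong region 652 bp upstream of cgh-1 and a weak one, at rank 9290, 851 bp upstream, while replicate 2 had 1 region, 786 bp upstream. With the region of the nearest summit taken in each replicate, the relative signal falls from 2.39 to 1.35, and cgh-1 would then rank below pash-1. The next peak upstream (rank 793, signal 211) was 1840 bp from cgh-1, with a relative signal of 1.97 in both replicates, and it was 66 bp upstream of sap-140 and 201 bp upstream of C07H6.9, 2 genes transcribed away from each other. C07H6.9 is the same-strand neighbour ahead of cgh-1, and the summit at rank 647 was 739 bp downstream of the nearer of its 2 annotated 5′ ends, slightly closer than the 767 bp to cgh-1. The printed sequences of the 2 summits differ in that TGACG is present in the farther one, 12 bp from its summit, and absent from the nearer one.

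At xrn-2 (WBGene00006964, plus strand) no replicated peak was in the promoter window, although one of the strongest peaks near any of the 8 genes was just beyond it. This peak (chrII:14154447-14154662) ranked 160 with a signal of 403. Its relative signal was 3.99 in replicate 1 and 3.56 in replicate 2, a mean of 3.77 ± 0.300 (SD, n = 2), above every peak assigned to the genes. Its summit, printed above, was 1201 bp upstream of xrn-2, 727 bp upstream of rpl-43, a ribosomal protein gene on the same strand that ends 198 bp before xrn-2, and 194 bp upstream of Y48B6A.1 on the opposite strand. Within the window of xrn-2 itself the lists held only weak regions. They were 26 bp upstream at rank 29581 in the pooled list, 656 bp upstream at rank 29599 in replicate 1 and 97 bp upstream at rank 13486 in replicate 2. The regions of the pooled list and replicate 2 overlapped, and that of replicate 1 overlapped neither.

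**Figure D2:**
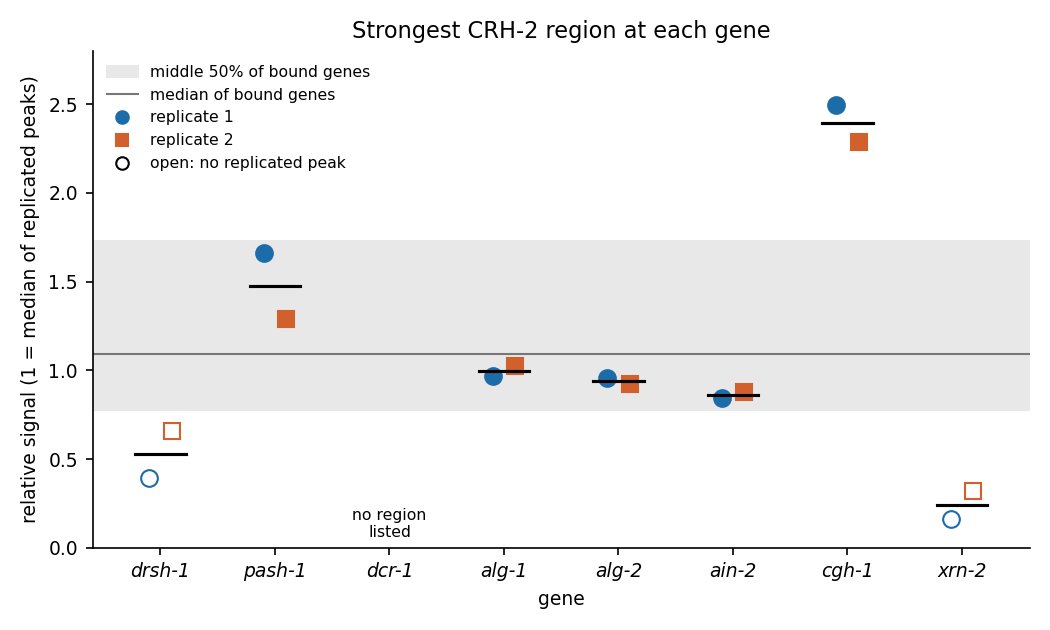
Relative signal (y axis, 1 is the median of the replicated peaks) of the strongest region at each gene in each replicate. Filled symbols are replicated peaks, open symbols are the strongest promoter regions of genes without one, bars are means of the 2 replicates, and the grey band is the middle of the distribution over all genes with a promoter peak (0.779 to 1.73). cgh-1 stands above the band at 2.50 and 2.29, pash-1, alg-1, alg-2 and ain-2 lie in it, and drsh-1 and xrn-2 lie below it.

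The order of the 5 peaks by relative signal was cgh-1, pash-1, alg-1, alg-2, ain-2. The 2 replicate values of each gene lay apart from those of the next in the order, but with 2 values a gene this is a description and allows no test. The step from alg-1 to alg-2 was the smallest, from a lower value of 0.967 to a higher value of 0.955, and the order by pooled rank puts ain-2 (2980) ahead of alg-2 (3246). Over all genes with a promoter peak in both replicates the median relative signal of the strongest one was 1.09, with quartiles of 0.779 and 1.73. Of the genes here, cgh-1 was above the upper quartile in both replicates, while the other 4 were between the quartiles. For cgh-1 this rests on the strongest overlapping region. The region of the nearest summit in replicate 1 had a relative signal of 0.409, below the lower quartile. The replicates of alg-1, alg-2 and ain-2 differed by 0.08 or less on the log2 scale, those of cgh-1 by 0.13 and those of pash-1 by 0.37, the last above the median difference of 0.31.

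**Figure D3:**
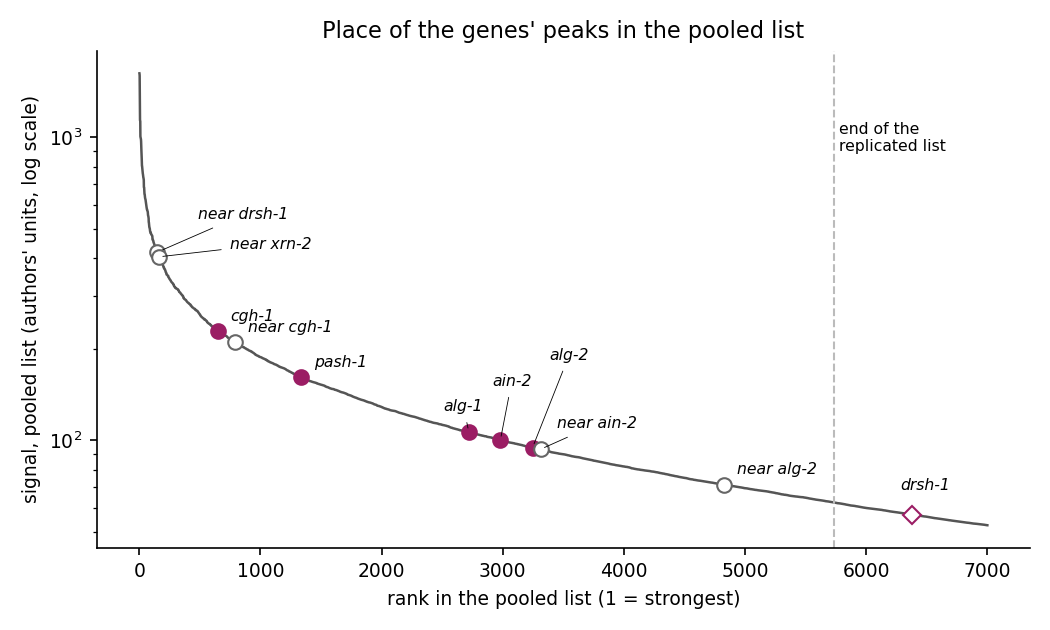
Signal in the authors' units (y axis, log scale) against rank in the pooled list (x axis) for its strongest regions. Filled circles are the peaks at the genes, open circles replicated peaks within 3000 bp that lie in no promoter window or intron of the gene, and the diamond is the drsh-1 region, just past the end of the replicated list at rank 6381. The peaks near drsh-1 (rank 142) and near xrn-2 (rank 160) are stronger than that of cgh-1 (rank 647).

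**Figure D4:**
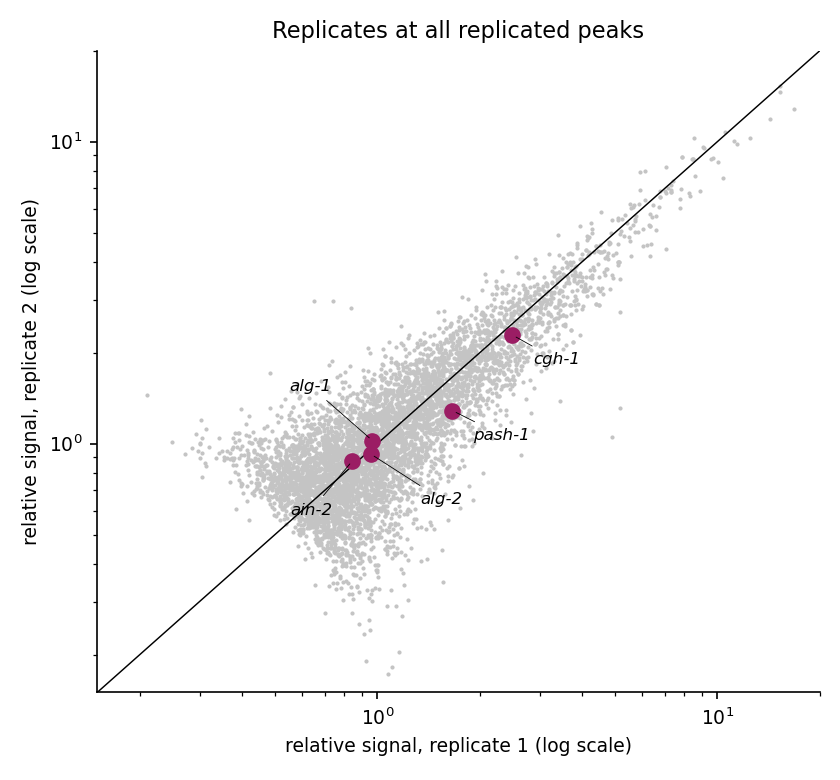
Relative signal in replicate 1 (x axis) and replicate 2 (y axis), both on log scales, for the replicated peaks found in both replicates (grey), with the strongest peak of each of the 5 genes marked; the line is equality. alg-1, alg-2 and ain-2 lie close to the line near 1, and pash-1 lies below it at 1.66 and 1.29.

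Annotated 5′ ends at least 500 bp apart were present in 4 of the 8 genes, alg-1, alg-2, pash-1 and ain-2. Of all 19973 protein-coding genes, 2943 had such 5′ ends. A replicated intron summit between the gene's own 5′ ends was present in 2 of these 4, alg-2 and ain-2, beside 18.7% of all genes with such 5′ ends. With 5′ ends at least 1000 bp apart 1 gene (ain-2) had one, beside 21.1% of all such genes. The 5′ ends of alg-2, 948 bp apart, fall outside that rule. With the 2867 stronger peaks 0 had one, beside 9.62% of all genes with 5′ ends at least 500 bp apart. When the intron of any transcript was allowed, even with an exon of another transcript at the summit, alg-1 joined alg-2 and ain-2. That gave 3 of 4 beside 19.2%. In pash-1 the 2 starts are 6366 bp apart, and the peak was ahead of the first. This measure was chosen after the positions had been seen, so the counts describe the 4 genes and support nothing further.

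The promoter summit of alg-2 was shared with the non-coding RNA gene T07D3.12, whose 5′ end was nearer to it than those of alg-2. At 0 of the 4 genes with a promoter peak did the summit also lie in the window of another protein-coding gene, beside 42.1% of all genes with a promoter peak. The windows shared with other protein-coding genes were those of the intronic ain-2 summit (ptps-1) and of the strong peaks beyond the windows of cgh-1, xrn-2 and drsh-1. The distance of the summit varied among the 4 genes. Measured to the nearest 5′ end, the distance was 78 bp at pash-1, 260 bp at alg-1, 361 bp at alg-2 and 767 bp at cgh-1, against a median of 227 bp and quartiles of 124 bp and 420 bp over all genes with a promoter peak, so cgh-1 alone of the 4 was beyond the upper quartile.

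Sequence at the 5 summits was searched on both strands, 50 bp to each side. The palindrome TGACGTCA, the full site of CREB family proteins, was found at ain-2 alone, 31 bp from the summit, beside 1.29% of all 5735 summits. TGACG, the shorter site contained in it, was found at alg-2, pash-1 and ain-2, which is 3 of 5 beside 21.5% of all summits. At pash-1 it was 15 bp from the summit, and at alg-1 it was 52 bp away, just past the edge. None of the 5 held TGACGTGG or TGACGTGT (3.57% of all summits), CACGTG (7.36%) or GAGAGAGA (6.43%). The absence of these letters says nothing of which proteins bind there. The base composition of the windows differed between the genes, with a GC content of 57.4% at alg-1, 52.5% at alg-2 and at cgh-1, 43.6% at pash-1 and 42.6% at ain-2. The median over all summits was 42.6%, with quartiles of 37.6% and 48.5%, so alg-1, alg-2 and cgh-1 were above the upper quartile.

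Genes that work with the 8 were read against the same background of 19.3%. Of 14 partners of the microRNA pathway, 11 had a replicated promoter peak (78.6%). With each summit given to the nearest protein-coding 5′ end alone the count was 6, beside 21.2% of all genes. In the window of 500 bp upstream and 100 bp downstream it was 8, beside 15.5% of all genes. The strongest by signal were at nhl-2, a TRIM-NHL cofactor of the Argonaute complex (567; relative signal 5.28 ± 1.09, SD, n = 2), hsp-90, a chaperone used in Argonaute loading (492; 4.64 ± 0.501), and vig-1, a component of the silencing complex (433; 4.04 ± 0.0552). The peak of nhl-2 is shared with the windows of tag-340 and F26F4.14 and that of hsp-90 with C47E8.4, while vig-1 shares its peak with no other gene. ebax-1, paxt-1 and pup-2 had none. A pair of paralogs of the genes here was in this list and is named after the values were seen. ain-1, the other GW182 gene, had a peak at rank 208 with a relative signal of 3.74 in replicate 1 and 3.21 in replicate 2, both above the 0.845 and 0.878 of ain-2. alg-5, an Argonaute that also binds microRNAs, had a peak at rank 1217 with a mean of 1.61 ± 0.145 (SD, n = 2), above the means of alg-1 and alg-2, and its summit was also in the windows of the histone genes his-67 and his-68. The summits at nhl-2, ain-1 and alg-5 were 840 bp, 944 bp and 816 bp upstream, all outside the narrower window.

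Downstream in silencing, 19 of 28 matched genes of deadenylation and decapping had a promoter peak (67.9%). The highest signals were at ifet-1, a translational repressor that acts with CGH-1 (589; relative signal 5.54 ± 0.261, SD, n = 2), at ntl-11, of the CCR4-NOT deadenylase complex (482; 4.45 ± 0.0744), and at edc-4, an enhancer of decapping (209; 1.95 ± 0.0871). The ifet-1 summit was also in the windows of rps-1, a ribosomal protein gene, F56F3.10 and F56F3.11. Among 37 other Argonaute and small-RNA genes the count was 11 (29.7%), and from 5 to 22 under other rules for the window, the region list and the assignment, with the highest signals at rde-4, the double-stranded RNA-binding partner of DCR-1 in RNA interference (233), mut-15, of the mutator foci (213), and ekl-1 (194). The rde-4 summit was also in the window of cox-14, that of mut-15 in the window of fib-1 and that of ekl-1 in the window of prpf-4. rde-4 and alg-5 belong to both this list and that of the partners.

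Within the Argonaute family, alg-1, alg-2 and alg-5, which bind microRNAs, had a replicated promoter peak in 3 of 3 cases, beside 19.3% of all genes. With the window of 500 bp upstream and 100 bp downstream this was 1 of 3 (alg-1), beside 15.5%. With each summit given to the nearest protein-coding 5′ end it was 2 of 3 (alg-1 and alg-2), beside 21.2%. The alg-2 summit was nearer still to the non-coding RNA gene T07D3.12, which that rule leaves out. Of the 15 other Argonaute genes in the lists, among them rde-1, prg-1 and csr-1, 0 had a replicated promoter peak under any of these 3 rules. In the pooled list of all regions 5 of these 15 (rde-1, csr-1, hrde-1, nrde-3 and sago-2) had a promoter region, beside 45% of all genes. This split of the family was made after its values had been seen, and the level of each gene in L2 larvae was not measured, so how expression relates to it was not tested.

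**Figure D5:**
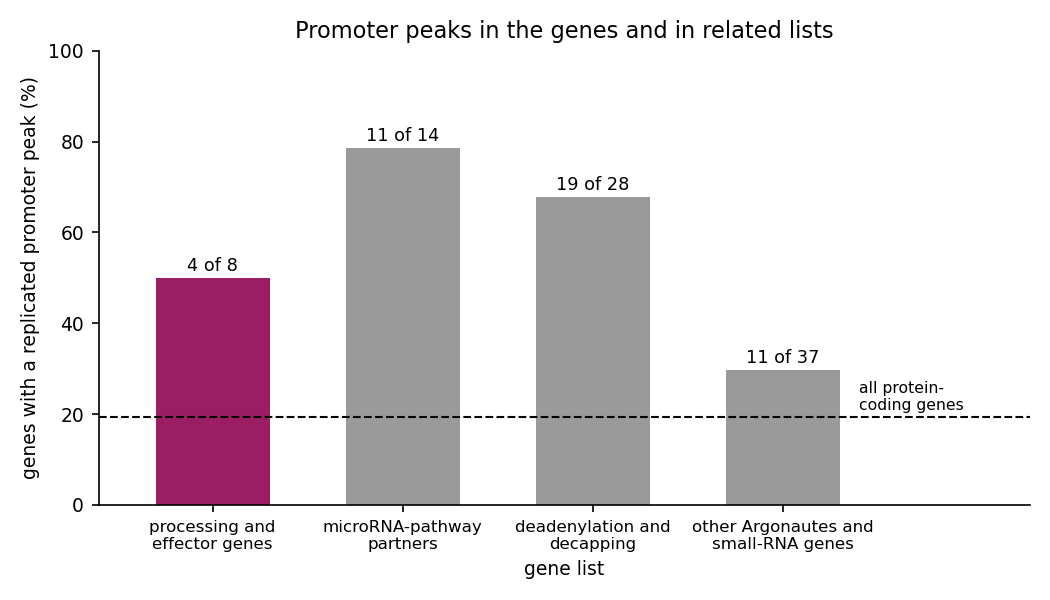
Percentage of genes with a replicated promoter peak (y axis) in the 8 genes and in the 3 related lists, with the counts above the bars; the dashed line is the 19.3% of all protein-coding genes. The 8 genes are at 4 of 8, below the partners at 11 of 14 and the deadenylation and decapping genes at 19 of 28, and the other Argonautes and small-RNA genes are nearest to the line at 11 of 37. The order depends on the assignment. With each summit given to the nearest protein-coding 5′ end, not drawn, the counts were 4 of 8, 6 of 14, 15 of 28 and 5 of 37, beside 21.2% of all genes.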

How the data were processed

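ChIP-seq of tagged CRH-2 was deposited for 2 biological replicates of 1 group; whether these came from separate cultures is not stated further. Per the file headers of the narrowPeak format, the authors deposited for each region a signal, a −log10 q-value and a summit offset (another value of the format). Regions were called per replicate and on both pooled, per the deposited notes; the peak caller and the aligner were not given in the sources used here, the scale of the signal is not stated, and depth is unknown, so no counting interval can be given. The pooled list cut after its 5735 strongest regions is the replicated list, so a replicated peak need not be in both replicates. Lists on ce10 were not used.

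Summits were assigned to 5′ ends and introns of Ensembl release 115 on WBcel235, with 1-based coordinates. A replicate's region was matched to a peak by at least 1 bp of overlap, and the strongest was taken. No test was run, since 1 group allows no comparison of conditions. The assignment and the motif search gave the set answer at 2300 of 2300 planted positions, some inside and some outside the windows. For windows and introns that answer was set by the same rules of distance and exon overlap, so agreement there could hardly fail. The genes, lists and motifs were chosen with earlier results of these data known. The text names the 8 genes, genes that share their summits, up to 3 genes with the highest signal in each related list, neighbours, and genes marked as named later. The symbols ntl-1 and lsm-2 had no match. Alternatives changed the window, transcripts, stringency, list, replicates, assignment, matching, scaling and motif window. Python 3.11.15, numpy 2.4.6 and matplotlib 3.10.9 were used.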

Additional observations from a re-analysis of the deposited data

How the results depend on the processing

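Of 96 values under alternative settings, 75 stayed within the limits set (for counts, 1.5 times) and 21 moved. With a window of 500 bp upstream and 100 bp downstream, 2 of the 8 genes (alg-1 and pash-1) kept a promoter peak, and 7 other Argonaute and small-RNA genes did. With 2000 bp upstream and 500 bp downstream, 6 of the 8 genes had one, beside 24.528% of all genes, a count within the limit of 1.5 times. With the 2867 stronger peaks alone, 3 of the 8 genes (alg-1, pash-1 and cgh-1) had a promoter peak, beside 11.225% of all genes. The small-RNA list then had 7. An intron summit was left at 0 of the genes, for which no share of all genes was taken. A summit between their own 5′ ends was also left at 0, beside 9.616% of genes with 5′ ends at least 500 bp apart. With all pooled regions 7 of the 8 genes, 45.006% of all genes, 22 small-RNA genes and 51.104% of genes for the summit between 5′ ends were reached. With each summit given to the nearest protein-coding 5′ end, 21.234% of all genes, 6 partners and 5 small-RNA genes had a peak. The 4 of 8 genes then lost cgh-1 and gained ain-2. With 5′ ends at least 1000 bp apart, 1 gene had a summit between them, beside 21.084% of all such genes. In the whole peak region, 1 of the 5 peaks (alg-1) held GAGAGAGA, beside 13.5% of all 5735 peaks. Without replicate 1, 5 of the 8 genes had a promoter peak, with drsh-1 added, beside 18.951% of all genes. Without replicate 2 the count was 4, beside 18.84%. RefSeq 5′ ends left the 4 genes of the main rule, beside 19.028% of all genes. The relative signals scaled by whole-list medians were 2.98 (ain-2) to 8.30 (cgh-1), by construction, in the same order. The cause of the other moves, beyond the narrower or wider rule itself, was not tested. The measure between a gene's own 5′ ends, its alternatives and the RefSeq alternative were chosen after seeing the data. No paired analysis was possible because there was 1 group and no test. Depth is unknown, so weak binding at dcr-1 is not detectable below the lists' lowest signals.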
